A study of Mus musculus with 6 samples.

Results

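The miR-23, miR-27 and miR-24 genes form a pair of short clusters in the mouse genome, and their mature microRNAs were followed here in liver tumours and in the liver beside them. Members were all rows of the deposited table named mmu-miR-23a, mmu-miR-23b, mmu-miR-24, mmu-miR-27a or mmu-miR-27b, with or without a copy number or an arm mark. The rule found 9 of the 695 microRNAs of the table. Of these, 5 are the major arms miR-23a, miR-23b, miR-24, miR-27a and miR-27b, and 4 are the starred, less abundant arms miR-24-1*, miR-24-2*, miR-27a* and miR-27b*.

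The samples were 3 liver tumours and 3 pieces of normal-looking liver cut next to them, each hybridised to 1 array, from C57BL/6J mice aged 6 months. All mice, and so both groups, had received 3E10 particles of the AAV-Rian-CMV vector, an adeno-associated virus for gene targeting at Rian, by vein the day after birth (day 1). No liver without the vector was analysed here, so an adjacent piece is liver of an injected animal and not untreated liver. Titles number the pairs 1293, 1309 and 1316. The source label of the third tumour reads 1306 in place of 1316.

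MicroRNAs of a cluster are cut from 1 primary transcript. Each hairpin gives a pair of arms, and usually the major arm is loaded into Argonaute and pairs through its seed, bases 2 to 8, with target mRNAs. In mouse fetal liver cells the miR-23b cluster is known to dampen TGF-beta signalling through Smad proteins. The miR-27 microRNAs are known regulators of fat cell differentiation and of lipid metabolism, miR-24 represses cell cycle genes in human cells, and both clusters are active in endothelial cells.

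In RefSeq's annotation of GRCm38.p6 the a cluster lies on the plus strand of chromosome 8, in the order Mir23a (chr8:84208518-84208592), Mir27a (chr8:84208672-84208758) and Mir24-2 (chr8:84208815-84208921). Its hairpins span 404 bases and, microRNA genes aside, overlap no other gene of the RefSeq table. The b cluster lies on the plus strand of chromosome 13, in the order Mir23b (chr13:63300484-63300557), Mir27b (chr13:63300712-63300784) and Mir24-1 (chr13:63301208-63301275). Its hairpins span 792 bases and lie within the gene Aopep. Mature miR-24 has the same sequence from both clusters, so its row reads their sum, and only its starred arms tell Mir24-1 from Mir24-2.

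Mature sequences from RefSeq (GRCm38.p6) were matched for 8 of the 9 members, all but miR-23b. They are printed 5′ to 3′ with the seed in capitals, to show which members share a seed and how far a probe has to tell the a and b forms apart.
miR-23a: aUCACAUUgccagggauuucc
miR-27a: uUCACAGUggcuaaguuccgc
miR-27b: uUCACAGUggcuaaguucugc
miR-24: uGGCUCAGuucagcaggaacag
miR-24-1*: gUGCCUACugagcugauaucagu
miR-24-2*: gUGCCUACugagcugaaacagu
miR-27a*: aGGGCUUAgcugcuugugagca
miR-27b*: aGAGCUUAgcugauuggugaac
The major arms miR-27a and miR-27b share their seed and 20 of 21 bases. They differ by C19U, with miR-27a first and positions counted from the 5′ end. Their probes may therefore read each other's target, so the division of signal between these rows is uncertain. For miR-23a and miR-23b this could not be examined, since no sequence of miR-23b was matched. The starred arms miR-24-2* and miR-24-1* share a seed and their first 16 bases, so their probes may also read each other's target. By contrast, miR-27a* and miR-27b* differ at 8 of 22 positions, 1 of them in the seed (G3A). The seeds of miR-23a and of miR-27 both begin UCACA and differ after it.

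All values are the deposited log2 values, on which 1 unit is a factor of 2. Array medians lay between 6.39 and 6.44, and single values between 5.83 and 14.82. Detection calls were not analysed here. Tumour 1293 stood apart from the other arrays: it had the lowest value of the 6 arrays for 43.0% of all microRNAs, and limma's array weights gave it 0.0715, against 1.08 to 2.13 for the others. It was not low throughout, and some rows stood far higher there than on the other arrays. Examples are let-7d* (8.95 against 6.38 to 6.55) and miR-1894-5p (9.45 against 6.35 to 6.46). For 8 of the 9 members tumour 1293 was the lowest array, so results are given with and without it.

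Every major arm had a lower mean in tumours, and for 4 of the 5, miR-23a, miR-23b, miR-24 and miR-27b, all 3 tumours lay below all 3 adjacent pieces. Of all microRNAs, 59.6% had a lower mean and 22.9% separated in this way. Of the 347 brightest by their mean over the arrays, 37.8% separated. None passed limma's test over all microRNAs with the 6 arrays. The largest difference was that of miR-23b, 41.6% lower in tumours, and the smallest that of miR-27a, 15.7% lower. Without tumour 1293 the differences were smaller and their intervals narrower, and the same 4 were called lower. So were 12.2% of all microRNAs.

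The first member of the a cluster, miR-23a, represses glutaminase in human lymphoma cells. In adjacent liver miR-23a was at 8.91, 8.93 and 9.04 in pairs 1293, 1309 and 1316, and in tumours at 8.10, 8.68 and 8.61. Adjacent pieces lay close together and above every tumour, and tumour 1293 was far below the other tumours. The group means were 8.96 ± 0.07 and 8.46 ± 0.32 (SD, n = 3 each). The difference was -0.50 ± 0.16 (SE), with a 95% interval of -0.89 to -0.11 (limma adjusted p = 0.15).

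Its counterpart in the b cluster, miR-23b, had the most negative difference of the 9 members. Adjacent pieces gave miR-23b values of 9.10, 9.31 and 9.28, and tumours 8.02, 8.88 and 8.46, in the same order of pairs. Again the groups did not overlap, and tumour 1309 was the one nearest to the adjacent pieces. From means of 9.23 ± 0.11 and 8.45 ± 0.43 (SD, n = 3 each), the difference was -0.78 ± 0.21 (SE; 95% interval -1.30 to -0.25; limma adjusted p = 0.12). Ranked by log2 fold change from the most negative, miR-23b was 13th of 695.

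Of the miR-27 rows, miR-27b behaved like the miR-23 rows, and miR-27a did not separate the groups. For miR-27b, adjacent liver gave 8.14, 8.21 and 8.19 and tumours gave 7.29, 7.86 and 7.82, without overlap. The mean of miR-27b went from 8.18 ± 0.04 in adjacent liver to 7.66 ± 0.32 in tumours (SD, n = 3 each), a difference of -0.52 ± 0.16 (SE; 95% interval -0.91 to -0.13; limma adjusted p = 0.14).

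For miR-27a, adjacent liver gave 8.47, 8.51 and 8.60, and tumours 7.97, 8.24 and 8.64. Tumour 1316 was the highest of the 6 arrays for miR-27a, while tumours 1293 and 1309 were below all adjacent pieces. The means were 8.53 ± 0.06 and 8.28 ± 0.34 (SD, n = 3 each), and the difference was -0.25 ± 0.17 (SE; limma adjusted p = 0.53; 95% interval -0.66 to 0.16). Leaving out tumour 1316 gave -0.42 for miR-27a, and leaving out tumour 1293 gave -0.09. Neither passed limma's test (adjusted p = 0.19 and 0.72).

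The shared product miR-24 was at 9.17, 9.20 and 9.22 in adjacent liver and at 8.26, 8.99 and 8.84 in tumours. Adjacent pieces differed by little, with an SD of 0.03 against 0.38 among tumours, and every tumour was lower. The means of 9.19 and 8.70 (n = 3 each) differed by -0.50 ± 0.19 (SE; 95% interval -0.95 to -0.04; limma adjusted p = 0.22). A row that sums both clusters cannot say which of them contributes to it.

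**Figure D1:**
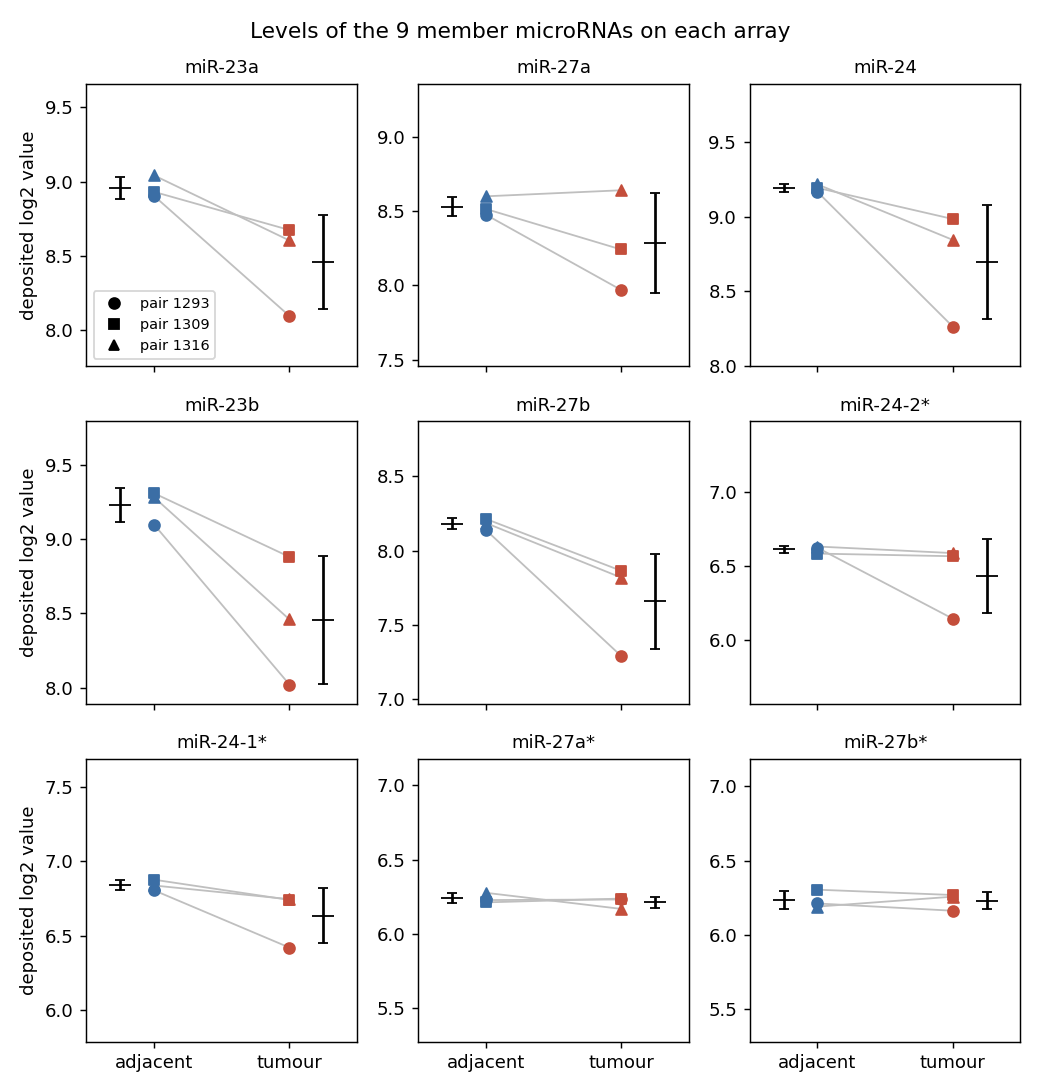
Deposited log2 values of the 9 members in adjacent liver and tumours, with grey lines joining the pieces of a pair and black bars for group means ± SD (n = 3). All panels span the same number of log2 units: miR-23a, miR-23b, miR-24 and miR-27b are lower in each tumour, miR-27a is not lower in tumour 1316, and miR-27a* and miR-27b* stay near 6.2.

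The starred arms gave small differences. For miR-24-1*, the starred arm of the b cluster's Mir24-1, adjacent liver gave 6.81, 6.88 and 6.84 and tumours 6.42, 6.74 and 6.75, and the groups did not overlap. Its difference was -0.20 ± 0.10 (SE; limma adjusted p = 0.34). Leaving out tumour 1293 made it -0.10 (limma adjusted p = 0.20). The a cluster's miR-24-2* gave 6.62, 6.58 and 6.63 in adjacent liver and 6.15, 6.57 and 6.59 in tumours. Only tumour 1293 lay far from the rest for miR-24-2*, and tumour 1316 lay among the adjacent pieces. The difference of miR-24-2* was -0.18 ± 0.13 (SE; limma adjusted p = 0.55). Leaving out tumour 1293 brought it to -0.04.

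Both starred arms of the miR-27 hairpins averaged 6.24 in adjacent liver, below the median of 6.38 over all adjacent means, where a row may hold background alone. Their differences were -0.03 ± 0.05 for miR-27a* and -0.01 ± 0.06 for miR-27b* (SE), with 95% intervals of -0.16 to 0.10 and -0.16 to 0.14. The sign of miR-27b* turned in several alternatives (0.03 without tumour 1293). Values this near the lower end of the scale cannot show a change in the arm.

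**Figure D2:**
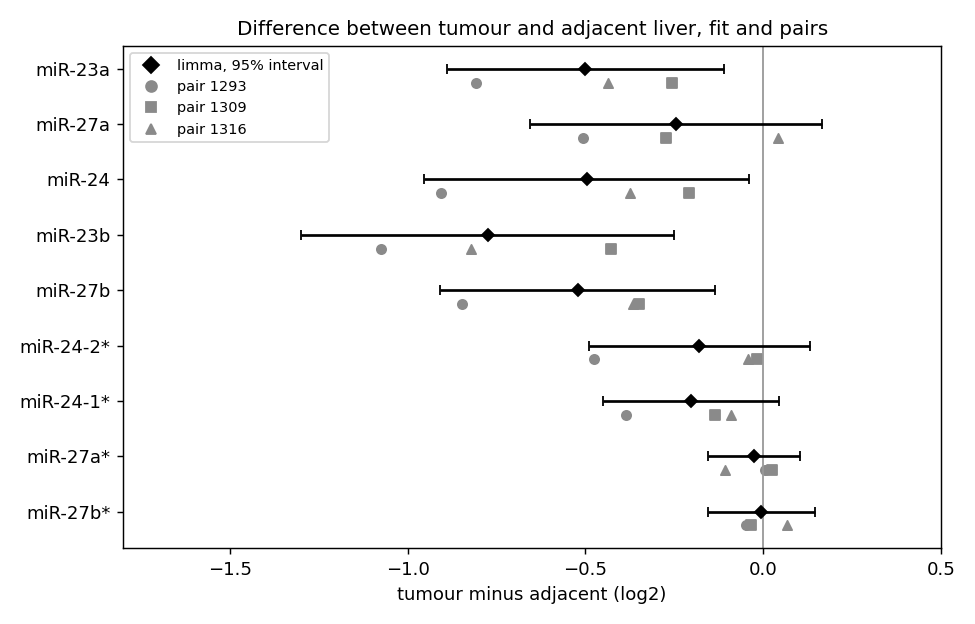
Tumour minus adjacent liver on the log2 scale for each member: limma's estimate with its 95% interval (black diamonds, 6 arrays) and the 3 pair differences (grey). The interval lies below 0 for miR-23a, miR-23b, miR-24 and miR-27b, and pair 1293 has the most negative value of every major arm.

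Counted over the members, all 9 had a lower mean in tumours, as did 59.6% of all 695 microRNAs. The median log2 fold change of the members was -0.25, against -0.03 over all microRNAs and -0.10 over the 347 brightest by their mean over the arrays. Adjacent means of these 347 reach down to 6.23, and those of the major arms were 8.18 to 9.23. The 347 are therefore not matched to the major arms in brightness. In limma with all arrays 0 of the 9 passed an adjusted p of 0.05 in the lower direction, where 0.288% of all microRNAs did. An unadjusted limma p below 0.05 in that direction was reached by 4, against 14.1% of all microRNAs and 27.4% of the brighter 347. The groups separated with tumours lower for 5 of the 9, the 4 major arms and miR-24-1*, against 22.9% of all microRNAs. Among the brighter 347 that share was 37.8%, so a lower level in every tumour was frequent among the brighter rows. Without tumour 1293 the median log2 fold change was -0.10 over the members, -0.03 over all microRNAs and -0.08 over the brighter 347. Tumours 1309 and 1316 then lay below all adjacent pieces for the same 5 members and no other, against 31.4% of all microRNAs and 47.0% of the brighter 347. Rows that separate with every tumour must also separate without tumour 1293, so this count could not fall.

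**Figure D3:**
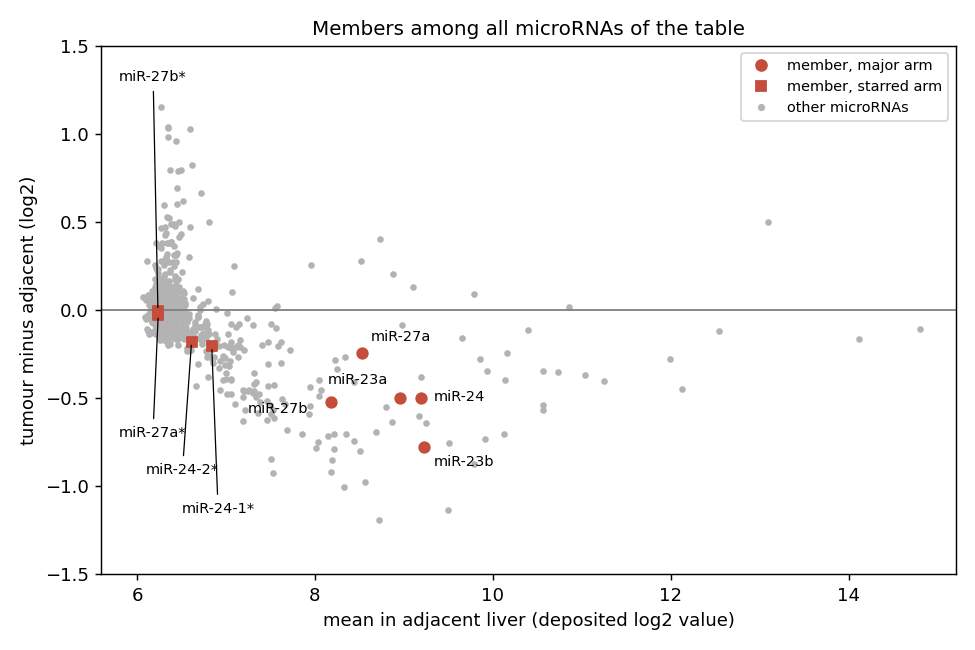
Difference between tumours and adjacent liver against the mean in adjacent liver, both in log2 units, for all 695 microRNAs (13 lie beyond the vertical limits of ±1.5). The major arms of the members (red circles) lie among other rows of like brightness that are mostly below 0, while of the starred arms (red squares) miR-27a* and miR-27b* lie at the dim end (6.24) and miR-24-2* (6.61) and miR-24-1* (6.84) above the median of 6.38.

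Which arrays entered the fit decided the calls. Without tumour 1293, limma called 4 of the 9 lower, where the background was 12.2%: miR-27b (-0.34, adjusted p = 0.0054), miR-23a (-0.32, 0.014), miR-24 (-0.28, 0.019) and miR-23b (-0.56, 0.033). Array weights called the same 4 against a background of 12.5%, but they gave tumour 1293 only 0.0715, so this setting is close to leaving it out. Without pair 1293, miR-23a (-0.35, limma adjusted p = 0.046) and miR-27b (-0.36, adjusted p = 0.023) were called, against 3.02% of all microRNAs. Without tumour 1309 only miR-23b was called (-0.99, limma adjusted p = 0.023; background 5.32%). A replicate block for the pair number left 0 members called by limma, and 1.73% of all microRNAs in either direction. The blocked adjusted p-values of miR-23b, miR-27b, miR-23a and miR-24 were 0.14, 0.17, 0.18 and 0.24.

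**Figure D4:**
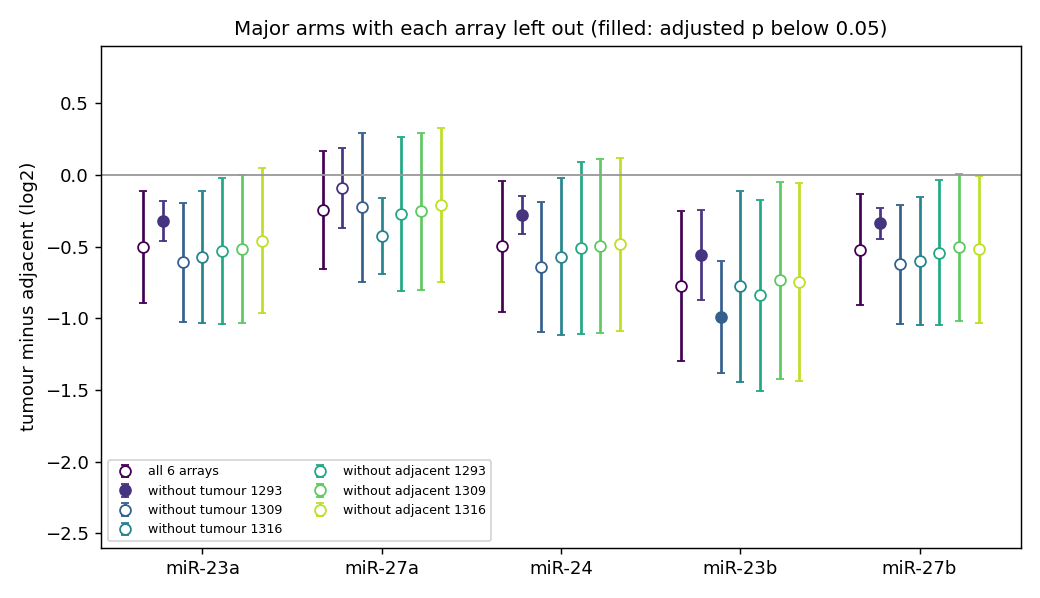
Tumour minus adjacent liver (log2) for the 5 major arms with all 6 arrays and with each array left out, with limma's 95% intervals and filled points where the adjusted p is below 0.05. Without tumour 1293 the intervals of miR-23a, miR-24, miR-23b and miR-27b are narrower and these 4 are called, and without tumour 1309 only miR-23b is.

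With all arrays, the major arms differed more among tumours than among adjacent pieces. Among adjacent pieces the SD of the major arms ranged from 0.03 to 0.11, and among tumours from 0.32 to 0.43. Over all microRNAs the median SD was 0.05 in adjacent liver and 0.14 in tumours, and over the brighter 347 it was 0.05 and 0.25. Over tumours 1309 and 1316 alone (n = 2) the SD was 0.03 for miR-27b, 0.05 for miR-23a, 0.10 for miR-24, 0.28 for miR-27a and 0.30 for miR-23b, and its median was 0.05 over all microRNAs and 0.06 over the brighter 347. Pair medians over the 5 major arms were -0.85, -0.27 and -0.37 in pairs 1293, 1309 and 1316.

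The a and b clusters were then compared through the difference of matching rows on the same array, which array-wide scaling by a constant cannot change. The level of one row was not set against that of another, since probes differ in affinity. Only the shift of this difference between adjacent liver and tumours was read. In the major arms the b form had the larger deficit in all 3 pairs, in both miR-23 and miR-27, and with 3 arrays against 3 neither shift could pass the exact test.

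For miR-23a minus miR-23b, adjacent liver gave -0.19, -0.38 and -0.24 and tumours 0.08, -0.20 and 0.15. The shift was positive in every pair (0.27, 0.17 and 0.38 in pairs 1293, 1309 and 1316), and tumour 1309 overlapped the adjacent range. Its mean was 0.27 ± 0.11 (SD of 3 pairs), a factor of 1.21 in favour of the a form. The exact permutation test over arrays gave p = 0.20, two-sided, and 0.32 after adjustment over the 8 differences tested. How far the probes tell miR-23a from miR-23b was not examined, so the division of signal between them is uncertain.

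For miR-27a minus miR-27b, adjacent liver gave 0.33, 0.30 and 0.41 and tumours 0.68, 0.38 and 0.82. Tumours 1293 and 1316 lay above the adjacent pieces and tumour 1309 among them. The shift was 0.34, 0.08 and 0.41 in the 3 pairs, with a mean of 0.28 ± 0.18 (SD of 3 pairs) and again a factor of 1.21 (exact permutation p = 0.20, two-sided; adjusted p = 0.32). With 3 arrays against 3 the exact permutation test cannot go below p = 0.10, and exact sign flips over 3 pairs cannot go below 0.25, so no difference could pass singly.

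The same shifts were nearer 0 in the starred arms, and whether they differ from those of the major arms was not tested. For miR-24-2* minus miR-24-1* it was 0.02 ± 0.11, and for miR-27a* minus miR-27b* -0.02 ± 0.13 (SD of 3 pairs). Pairs disagreed in sign for both (exact permutation p = 0.50 and 0.80, two-sided, or 0.57 and 0.80 adjusted). The rows of miR-27a* and miR-27b* may hold background alone, so their shift cannot show a change.

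Major and starred arms were compared in the same way. The row of miR-24 reads both Mir24-1 and Mir24-2, so its difference from either starred arm is not that of a single hairpin. The difference of miR-24 minus miR-24-1* was 2.36, 2.32 and 2.38 in adjacent liver and 1.84, 2.24 and 2.10 in tumours, lower in each tumour than in any adjacent piece. Against miR-24-2* it was 2.54, 2.61 and 2.59 in adjacent liver and 2.12, 2.42 and 2.26 in tumours, also without overlap. The shifts were -0.29 ± 0.22 and -0.32 ± 0.12 (SD of 3 pairs), each at exact permutation p = 0.10, the smallest this design allows, and 0.27 adjusted. Without tumour 1293 they were -0.18 and -0.24. Both starred rows lay low on the scale, at 6.84 and 6.61 in adjacent liver against a median of 6.38 over all adjacent means. Rows this low may follow a change only in part, so these shifts may in part repeat that of miR-24.

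Of the miR-27 hairpins, miR-27b minus miR-27b* was 1.93, 1.91 and 1.996 in adjacent liver and 1.13, 1.60 and 1.56 in tumours, with no overlap. The shift was -0.52 ± 0.25 (SD of 3 pairs; exact permutation p = 0.10, adjusted 0.27), and -0.37 without tumour 1293. The same difference for miR-27a overlapped between the groups, with shifts of 0.15 in pair 1316 and of -0.51 and -0.30 in pairs 1293 and 1309. Its mean was -0.22 ± 0.34 (exact permutation p = 0.40, adjusted 0.53). Leaving out tumour 1293 gave -0.05 for it, and leaving out tumour 1316 gave -0.42. Both starred rows averaged 6.24 in adjacent liver, where a row may hold background alone. The shifts of these hairpins may therefore repeat those of miR-27b and miR-27a, and they cannot show a change between arms.

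**Figure D5:**
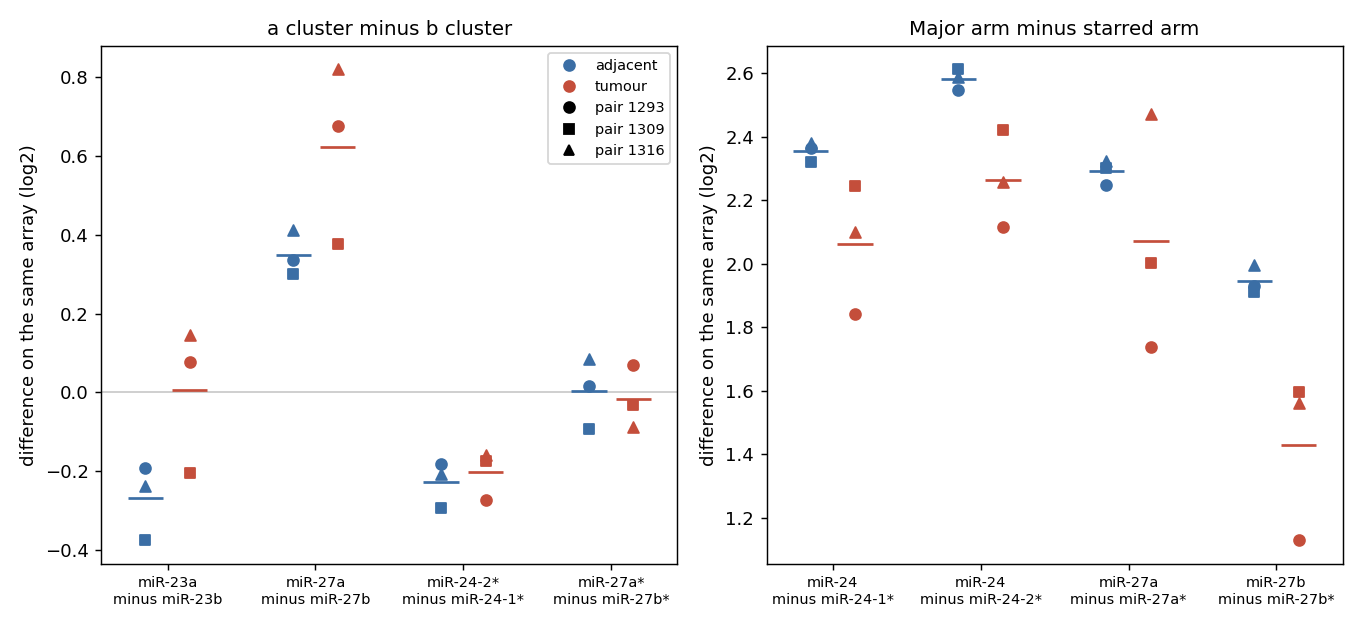
Differences of matching rows on the same array (log2) in adjacent liver (blue) and tumours (red), with lines at group means, for a minus b cluster (left) and major minus starred arm (right). The a minus b difference of miR-23 and of miR-27 is higher in the tumour of every pair, and miR-24 and miR-27b are nearer to their starred arms in all tumours. The rows of miR-27a* and miR-27b* lie where they may hold background alone.

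Rows with the most similar course over the 6 arrays were sought among the 340 other microRNAs in the brighter part of the table, those whose mean exceeded the median. Likeness was the root mean square difference of row-centred log2 values, where smaller is closer. Closest to the a profile, the mean of miR-23a and miR-27a, were miR-1839-5p (0.07), miR-30e (0.08) and miR-30e* (0.08), against a median of 0.26. Closest to the b profile, the mean of miR-23b and miR-27b, were miR-143 (0.06), miR-107 (0.06) and miR-203 (0.07), against a median of 0.35. By the same measure miR-23a and miR-27a stood 0.19 apart, and miR-23b and miR-27b 0.18, so each profile averages rows that differ. All 6 neighbours had tumour 1293 as their lowest array.

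No other measured row had the seed of a member by its RefSeq sequence. The sequence of miR-128, a microRNA abundant in brain, holds the 8 bases UCACAGUG, from its first base, that miR-27a holds from base 2, so target sites of both can overlap. Its row stood at 6.77 ± 0.06 in adjacent liver and 6.61 ± 0.17 in tumours (SD, n = 3 each), a difference of -0.16 (limma adjusted p = 0.46).

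Of 25 marker microRNAs of other cell types and of hepatocytes, 22 had a lower mean in tumours and 2 were called lower by limma. Over all microRNAs 59.6% had a lower mean, as did 62.5% of the brighter 347, and 0.288% of all were called lower. In bulk tissue, fewer cells of a type and less RNA per cell cannot be told apart. Of the hepatocyte list all 5 had a lower mean (median log2 fold change -0.70), and the mean level of that list was 11.03 to 11.09 in adjacent liver and 10.18 to 10.86 in tumours. Their values were -0.11 for miR-122, -0.45 for miR-192, -0.76 for miR-194, -0.70 for miR-148a and -1.19 for miR-101a, with 0 called by limma. The row of miR-122 lay at the top of the scale (14.8216 in both tumours 1293 and 1309), where a change may be hidden. The endothelial rows miR-126-3p and miR-126-5p were at -0.12 and -0.39, and their mean level was 8.67 to 8.73 in adjacent liver and 8.28 to 8.64 in tumours.

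Of the other lists, 4 of 5 stromal rows (median -0.53), 4 of 6 leukocyte rows (-0.29), all 5 epithelial rows (-0.40) and both erythroid rows (-0.31) had a lower mean. The share over all microRNAs was 59.6%. Mean levels ranged over 7.14 to 7.23 in adjacent liver and 6.63 to 6.89 in tumours for stromal rows, over 7.22 to 7.41 and 6.79 to 7.29 for leukocyte rows, over 6.84 to 6.95 and 6.38 to 6.62 for epithelial rows, and over 8.14 to 8.80 and 7.75 to 8.47 for erythroid rows. The 2 called were the epithelial miR-200a and miR-200b. The hepatocyte list had pair medians of -0.89, -0.26 and -0.86 in pairs 1293, 1309 and 1316, and the endothelial list -0.45, -0.06 and -0.25. The part of these cell types in the lower values of the members was not tested.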

How the data were processed

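The deposited table holds log2 values that the authors made with RMA, which corrects background, normalizes by quantiles and summarises probes. RMA and limma are named, with no version, in the submitters' processing notes. No source gives the log base, and 2 was assumed. Labels describe column-prepared total RNA, cyanine 3 labelling and the Agilent protocol for microRNAs. The table has 695 rows, 6 arrays, 0 missing values and 0 columns of other series, and no arrays were identical (0 pairs).

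All rows were fitted with limma 3.58.1 (R 4.3.3), lmFit and eBayes, tumour against adjacent, two-sided, with Benjamini-Hochberg adjustment over 695 rows and a threshold of 0.05. The fit was tested on simulated data in which each row had the same spread in both groups, unlike the major arms here. Differences between members were tested by exact permutation of the 6 arrays (scipy 1.17.1). The adjusted p of these covers 8 differences. The quantile step of RMA may narrow differences of bright rows.

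Labels of the adjacent pieces name the tumour each lay beside. The third pair was matched through the tumour's title, 1316, since its source label reads 1306, and that match is an assumption. Within pairs, correlations of the deviations from group means were -0.05, 0.07 and -0.003. The labels do not state that separate animals gave the tumours, so p-values measure the spread between these samples.

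The starred rows were matched to the 5p arms of RefSeq and the unstarred ones to the 3p arms, from the known naming of these hairpins. Members, marker lists, tests and alternatives were chosen with earlier results of these data known. Text names every member, the markers of hepatocytes and endothelium, miR-128 and the 3 nearest rows to each profile. The epithelial miR-200a and miR-200b were named after their values were seen. The alternatives were a replicate block, quantile normalization, centring each array (median, or 75th percentile), a filter on dim rows, an intensity trend with robust eBayes, array weights, and leaving out each array or pair. Medians, SDs and overlap counts without tumour 1293 were added after seeing the data. Figures used matplotlib 3.10.9.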

Additional observations from a re-analysis of the deposited data

How the results depend on the processing

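With 3 arrays a group, depth is set by the number of arrays, and signal over background is unknown. The count of called members was 0 with all arrays, 4 with array weights, 2 without pair 1293 and 0 to 4 with 1 array left out (4 without tumour 1293, 1 without tumour 1309). It was 0 in the other settings, the replicate block included. In all 16 settings the differences of the 5 major arms, of miR-24-1* and of miR-24-2* stayed negative. The a minus b shifts of miR-23 (0.20 to 0.38) and miR-27 (0.18 to 0.40) stayed positive without any 1 array. Signs turned in starred rows or their differences, none of them called. The difference of miR-27b* was 0.026 after quantile normalization, 0.023 with array weights, 0.015 without pair 1293, 0.0089 without pair 1309 and -0.028 to 0.028 with 1 array left out. That of miR-27a* was 0.015 without pair 1316. The shift of miR-24-2* minus miR-24-1* was -0.022 without pair 1309 and -0.0082 to 0.061 with 1 array left out. That of miR-27a* minus miR-27b* was 0.057 without pair 1316 and -0.068 to 0.021 with 1 array left out. The cause was not tested.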
